A study of Mus musculus with 24 samples.

Results

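Adding an antibody against the inhibitory receptor PD-1 to treatment with LGG, the oral bacterium Lactobacillus rhamnosus GG, was examined in Myd88 knockout mice that carried MC38 colon tumours. The transcripts measured were those of CD11c+ dendritic cells purified with CD11c microbeads from the mesenteric lymph nodes, which drain the gut. The comparison takes 6 of the series' 24 libraries, namely 3 labelled as knockout with anti-PD-1 plus live LGG (called the combination) and 3 labelled as knockout with LGG alone, chosen by their labels. All 6 come from C57BL/6 mice described as female and 6 to 8 weeks old, injected under the skin with 1000000 MC38 cells and treated from 7 to 10 days later, at tumours of 100 mm3, for 2 to 3 weeks. LGG was given by mouth and 200 ug of antibody per mouse was injected, each 2 times a week. Because no antibody is recorded for mice with LGG alone, the combination differs from them both in PD-1 blockade and in having received any antibody. The other knockout libraries received anti-PD-1 alone or control IgG, and wild-type mice received the same 4 treatments, again with 3 libraries each. Whether libraries of 1 group are from different mice is not stated. The p-values therefore measure the spread between libraries, which may be technical.

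PD-1 is a receptor on activated T cells that dampens their activity when it binds its ligands, which dendritic cells and tumour cells carry. Myd88 is the adaptor through which most Toll-like receptors and the receptors of the interleukin-1 family signal, so cells without it lose much of the direct response to bacterial lipoproteins. In mice, CD11c marks dendritic cells and also many macrophages. Interferon gamma, made mainly by T cells and natural killer cells, induces a family of GTPases in myeloid cells.

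Values are normalised counts, that is, reads of a gene divided by a factor for the library, and reads in listed genes ranged from 28179103 to 35022045 in the 6 libraries. Errors after means are SDs over 3 libraries, and log2 differences are combination minus LGG on log2(value + 1) with standard errors. Genes of macrophages and of dendritic cells were both counted. Itgax, which encodes CD11c, was at 53698, 51733 and 51199.7 normalised counts in the combination libraries and 45427, 42029 and 47571 in the LGG libraries. Csf1r, which encodes the receptor for macrophage colony-stimulating factor, was at 20728, 20883 and 19849.6 in the combination libraries, against 20588, 19344 and 20668 in the LGG libraries. The dendritic cell receptor gene Flt3 was at 43.0, 48.5 and 41.0 in the combination libraries, against 56.7, 45.4 and 49.2 in the LGG libraries. The plasmacytoid marker Siglech, the natural killer marker Ncr1, the B cell lectin gene Fcer2a and the stromal gene Col1a1 are not in the table analysed here. Myd88 (chromosome 9, 119335934 to 119341411) itself was at 748, 758 and 742 normalised counts in the combination libraries and 737, 1099.7 and 697 in the LGG libraries, and it did not pass the test between them (log2 difference -0.14 ± 0.19). A count over the whole gene does not show whether an exon is deleted. The Y-linked genes Ddx3y, Eif2s3y, Kdm5d and Uty were counted in all 6 libraries although the labels say female mice, and Xist is not in the table.

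One LGG library stood apart from its group. On the first principal component of the 6 libraries, which held 58.4% of their variance, LGG replicate 2 lay at 52.6, against -11.7 and -33.3 for LGG replicates 1 and 3. The 3 combination libraries lay between -4.79 and 1.98. The second component, with 16.9% of the variance, set the combination libraries at 10.5 to 18.2 apart from the LGG libraries at -15.8 to -11.7. Relative to the mean of LGG replicates 1 and 3, replicate 2 had a median log2 difference of 0.47 over the lowest quartile of genes by exon length and of -0.45 over the highest quartile. The combination differed from LGG replicates 1 and 3 in the same direction by less, at 0.15 and -0.16. LGG replicate 1 differed from LGG replicate 3 by about as much, at 0.14 and -0.16. The biological coefficient of variation was 0.033 in the combination and 0.25 in LGG, or 0.10 in LGG without replicate 2. Calls are therefore given with and without that library, and genes and lists also without it where stated.

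**Figure D1:**
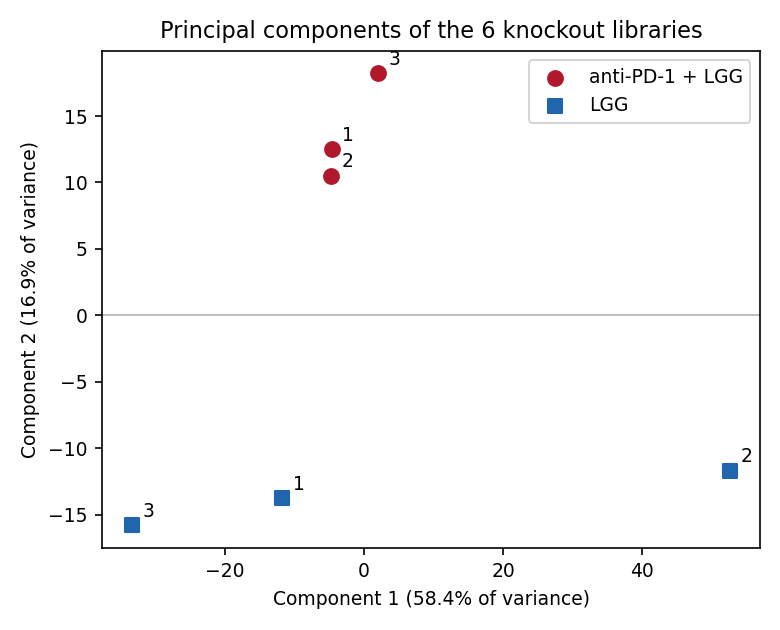
Principal components of log2(normalised count + 1) over the tested genes in the 6 knockout libraries, with component 1 (58.4% of variance) across and component 2 (16.9%) upwards; each point is a library with its replicate number. Component 2 separates the 3 combination libraries at 10.5 to 18.2 from the 3 LGG libraries at -15.8 to -11.7, and component 1 sets LGG replicate 2 at 52.6.

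In the combination 23 genes fell and 12 rose relative to LGG alone. The genes that fell include the protease inhibitors Serpina3f and Serpina3g, the interferon-induced GTPase genes Gbp4 and Iigp1, the interleukin-2 receptor chain gene Il2ra, the costimulatory ligand gene Cd86 and the lymphocyte genes Cd8a, Gzmb, Icos and Xcl1. The genes that rose include Gpr15, Syt7, Mmp8, Cav1 and the glucose transporter gene Slc2a1. Most differences were small: 5 of the 35 reached 2-fold, and absolute log2 differences ran from 0.23 to 2.01. The 35 are 0.275% of 12749 genes tested with limma (0.0941% higher and 0.18% lower) at an adjusted p under 0.05, and 879 genes had an unadjusted p under 0.05, 2.78% of all tested genes on the higher and 4.12% on the lower side. In all 35 the 3 libraries of one group did not overlap the 3 of the other, which was so for 6.93% of all tested genes on the higher side and for 5.45% on the lower side. Because the 35 were chosen by these same values, their lack of overlap is no separate support for the calls.

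The call depended on LGG replicate 2 and on how the spread was estimated. Without that library 47 genes were called (0.369%), 11 higher (0.0863%) and 36 lower (0.282%). Among them were 24 of the 35, 8 higher and 16 lower. All 35 kept their sign, with an adjusted p of at most 0.125. Leaving out LGG replicate 1 or 3 gave 15 or 20 calls, and leaving out combination replicates 1, 2 or 3 gave 19, 13 or 11. Called whichever of the 6 libraries was left out were 9 genes: Camk4, Serpina3g, Serpina3f, Il2ra, Gimap4 and Cd86 among those that fell, and Mmp8, Syt7 and Gpr15 among those that rose. With no libraries in the fit but the 6 compared, limma called 0 genes and 620 had an unadjusted p under 0.05. With all libraries edgeR called 55 genes (0.431%), 20 higher (0.157%) and 35 lower (0.275%), and DESeq2 called 201 (1.58%), 77 higher (0.604%) and 124 lower (0.973%). Knockout anti-PD-1 replicates 2 and 3 also stand apart and enter the shared estimate of the spread. The biological coefficient of variation of that group was 0.38. These libraries are not part of the comparison, and leaving them out keeps 1 library in their group. Doing so changes the estimated spread and not the log2 differences, which equal those without LGG replicate 2 alone. Leaving them out together with LGG replicate 2 gave 1437 calls (11.3% of genes), 611 higher and 826 lower. That wider fit contains all 35 genes.

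**Figure D2:**
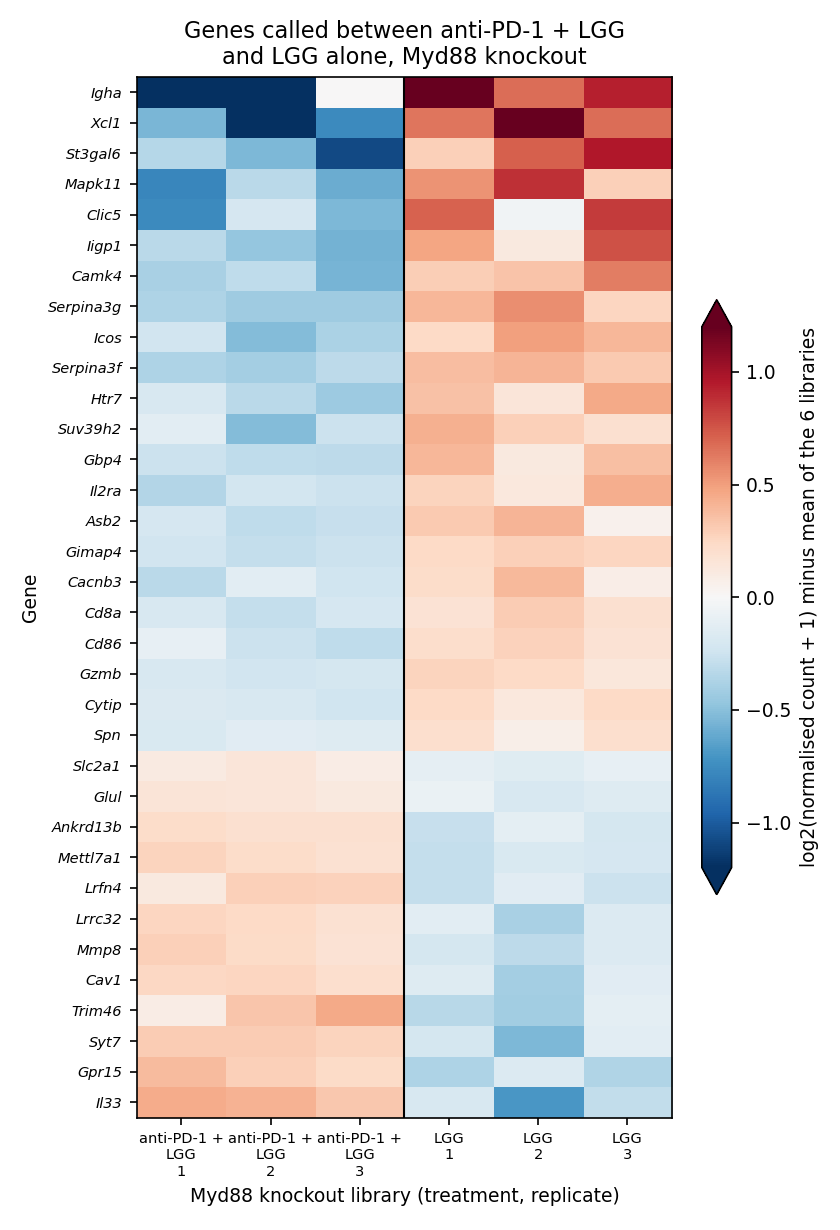
Each row is a called gene, 34 of the 35 being shown, and each column 1 knockout library, combination libraries left of the line and LGG libraries right of it; colour gives log2(normalised count + 1) minus the mean of the 6 libraries, on a scale that ends at 1.2 in either direction. The 22 genes in the upper rows were lower and the 12 in the lower rows higher in every combination library than in every LGG library.

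The smallest adjusted p belonged to Serpina3f (chromosome 12, 104214544 to 104221129 in the mm10 build), a mouse serine protease inhibitor of the alpha-1-antichymotrypsin family. It had 438, 425 and 454 normalised counts in the combination libraries and 733, 752 and 703 in the LGG libraries. The 6 values form tight groups with no overlap, LGG replicate 2 included, and the gene fell by 39.8% (log2 difference -0.73 ± 0.06, adjusted p = 7.69e-06, limma). Its neighbour Serpina3g (chromosome 12, 104236245 to 104241939), whose product inhibits lysosomal cathepsins, had 2245, 2169 and 2164 normalised counts in the combination libraries and 3834, 4281 and 3487 in the LGG libraries. That too is a clean separation, with the highest LGG value in replicate 2 (log2 difference -0.81 ± 0.11, adjusted p = 0.00211, limma). Both also fell without LGG replicate 2, with differences of -0.71 (adjusted p = 9.06e-05) and -0.74 (adjusted p = 0.00692). The genes are related copies of 1 cluster, and how reads that match several copies were counted is not stated in the sources used here.

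All 20 interferon-gamma response genes tested had a negative difference. The median of the list was -0.34, where the median of all tested genes was 0.01. Only Gbp4 and Iigp1 of the 20 fell with limma and 0 rose, against 0.18% of all genes that fell. DESeq2 called 8 lower, against 0.973% of all genes, and edgeR 2, against 0.275%. The libraries of 11 of the 20 did not overlap on the lower side, where 5.45% of all genes did so. Gbp4, a guanylate-binding protein of defence against intracellular microbes, had 607, 589 and 584 normalised counts in the combination libraries and 958, 788 and 933 in the LGG libraries (log2 difference -0.58 ± 0.10, adjusted p = 0.0114, limma). Iigp1, an immunity-related GTPase that attacks the vacuoles of parasites, had 277, 251 and 234 normalised counts in the combination libraries and 482, 377 and 591 in the LGG libraries (log2 difference -0.90 ± 0.17, adjusted p = 0.0182, limma). In both, LGG replicate 2 was the lowest of its group, so the differences were larger without it, at -0.67 (adjusted p = 0.00575) and -1.07 (adjusted p = 0.00603). Leaving out LGG replicate 1 or 3, or combination replicate 2 or 3, ended either call, with an adjusted p of up to 0.0772 for Gbp4 and 0.127 for Iigp1.

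Other members gave values in the same direction that did not pass. Irf1, a transcription factor induced by interferon, had 2756, 2772 and 2855 normalised counts in the combination libraries and 3622, 4217 and 3220.3 in the LGG libraries (adjusted p = 0.0696, limma). The GTPase gene Igtp had 772, 749 and 796 in the combination libraries, against 1041, 1203 and 930.4 in the LGG libraries (adjusted p = 0.0696, limma). The chemokine gene Cxcl10 had 185, 226 and 200.3 in the combination libraries, against 337, 302 and 281 in the LGG libraries, again without overlap (adjusted p = 0.186, limma), whereas Cxcl9 was near the lower limit of the table and overlapped, at 5.73, 2.91 and 7.03 in the combination libraries, against 4.50, 7.36 and 7.03 in the LGG libraries. Summed over the list, the combination libraries held 30267 to 30530 normalised counts and the LGG libraries 35522 to 37847. Without LGG replicate 2, 2 of 20 fell, against 0.282% of all genes, and 19 differences were negative (median -0.38). Without the 3 libraries that stand apart 17 of 20 fell and 0 rose, where 6.48% of all genes fell. Several of these GTPases are near copies of each other, among them Tgtp1 and Tgtp2, so the split of reads between them is uncertain.

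The promoters of Igtp and Cxcl10 are printed because both genes belong to the interferon-gamma list and hold a motif that most of its promoters share. They come from RefSeq on GRCm38.p6 and run from 250 bases before to 50 after a gene's start, in the direction of transcription. Capitals mark a repeat of GAAA after 2 bases of any kind, the core of sites bound by interferon regulatory factors, searched on both strands.
Igtp, chr11:58199306-58199605, plus strand: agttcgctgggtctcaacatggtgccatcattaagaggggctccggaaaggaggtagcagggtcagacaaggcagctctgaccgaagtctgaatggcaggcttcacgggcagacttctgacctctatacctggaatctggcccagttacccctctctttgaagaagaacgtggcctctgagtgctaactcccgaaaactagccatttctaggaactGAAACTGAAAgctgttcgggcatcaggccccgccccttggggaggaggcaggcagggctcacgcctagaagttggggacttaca
Cxcl10, chr5:92348840-92349139, minus strand: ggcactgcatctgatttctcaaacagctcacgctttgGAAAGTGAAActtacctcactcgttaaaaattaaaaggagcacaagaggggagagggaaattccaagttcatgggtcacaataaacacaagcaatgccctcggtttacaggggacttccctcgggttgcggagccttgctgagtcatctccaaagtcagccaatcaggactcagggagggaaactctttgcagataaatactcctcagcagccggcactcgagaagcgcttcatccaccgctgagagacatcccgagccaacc

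Each of these promoters holds 1 match. The repeat was found for 11 of the 14 interferon-gamma genes that matched the promoter table, and for 1 of 16 matched genes that fell and 2 of 10 that rose, where a gene counts if any of its starts has a match. Promoters on 1 chromosome were left out of these gene counts, though not of the share over all promoters. Gbp4 and Iigp1 are not among the matched genes and enter none of these counts. Over all 32851 promoters 3.44% hold it. A match is a description of letters in the window and shows no binding.

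Type I interferon response genes had mostly negative differences too. Of 39 tested, 37 had a negative difference (median -0.24), 0 rose and 0 fell with limma, and 14 did not overlap on the lower side, against 5.45% of all genes. At an unadjusted p under 0.05 there were 11 on the lower side, against 4.12% of all genes. Lower calls numbered 1 with edgeR (0.275% of all genes) and 2 with DESeq2 (0.973%). Without LGG replicate 2 limma called 1 of 39 lower, against 0.282% of all genes, and 33 differences were negative (median -0.21). Ifi44 had 480.3, 442 and 429 normalised counts in the combination libraries and 598, 614 and 719 in the LGG libraries (adjusted p = 0.0528, limma). Herc6, a ligase that attaches the ubiquitin-like protein Isg15, had 669, 709 and 652 normalised counts in the combination libraries and 954, 728 and 953 in the LGG libraries, and it fell only without LGG replicate 2, at -0.49 (adjusted p = 0.00575). Rsad2, whose product viperin restricts viruses, had 3350.4, 3320.3 and 3047 in the combination libraries, against 4409, 3337 and 5072 in the LGG libraries, with LGG replicate 2 inside the combination range. Isg15 had 1702, 1587 and 1722 in the combination libraries, against 1998, 3254 and 1654 in the LGG libraries, with the highest value in LGG replicate 2. Without the 3 libraries that stand apart, 13 of 39 fell and 0 rose, where 6.48% of all genes fell and 4.79% rose. The ligand gene Ifng had 269, 259 and 276 normalised counts in the combination libraries and 366, 493 and 303 in the LGG libraries (adjusted p = 0.466, limma), a separation without overlap that did not pass, and Ifnb1, which encodes interferon beta, overlapped at 15.3, 13.6 and 16.4 in the combination libraries, against 16.2, 30.7 and 11.1 in the LGG libraries.

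Some genes of T cells and cytotoxic cells, which a CD11c selection is meant to leave behind, fell as well. Of 26 T cell markers Cd8a and Icos fell, 0 rose and 24 did not pass (median -0.41), and 11 did not overlap on the lower side. Of all genes 0.18% fell and 5.45% did not overlap on that side. Without LGG replicate 2, 1 of 26 fell, against 0.282% of all genes, and 24 differences were negative (median -0.30). Cd8a encodes the CD8 alpha chain of cytotoxic T cells, which a subset of mouse dendritic cells also carries, and had 1346, 1265 and 1337 normalised counts in the combination libraries and 1738, 1902 and 1758 in the LGG libraries (log2 difference -0.45 ± 0.08, adjusted p = 0.0127, limma), a call that ended without combination replicate 2 or 3. Icos, a costimulatory receptor of activated T cells, had 56.3, 45.6 and 50.4 normalised counts in the combination libraries and 78.2, 93.3 and 87.4 in the LGG libraries (log2 difference -0.76 ± 0.15, adjusted p = 0.0265, limma), and lost the call without LGG replicate 2 at -0.70 (adjusted p = 0.0703) or without any other of the 6 libraries but combination replicate 1. Cd3e, a defining chain of the T cell receptor complex, had 196, 169 and 198 normalised counts in the combination libraries and 282, 345 and 244 in the LGG libraries, without overlap and without a call (adjusted p = 0.25, limma). The helper marker Cd4 was at 11.5, 18.4 and 14.1 in the combination libraries, against 18.0, 19.6 and 20.1 in the LGG libraries.

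Of 14 natural killer and cytotoxic genes Xcl1 and Gzmb fell, 0 rose and 12 did not pass (median -0.50), and 10 did not overlap on the lower side, against 0.18% of all genes that fell and 5.45% without overlap on that side. Xcl1, the chemokine that draws cross-presenting dendritic cells, had 12.4, 5.82 and 10.5 normalised counts in the combination libraries and 29.7, 55.2 and 30.1 in the LGG libraries (log2 difference -1.89 ± 0.35, adjusted p = 0.0206, limma), a level near the lower limit of the table. Gzmb (granzyme B) had 2355, 2296 and 2321 normalised counts in the combination libraries and 3233, 3169 and 2952 in the LGG libraries, 3 tight values per group (log2 difference -0.42 ± 0.08, adjusted p = 0.0332, limma). Without LGG replicate 2 neither passed, at -1.60 (adjusted p = 0.0703) and -0.41 (adjusted p = 0.0672). In that fit 0 of the 14 genes were called, and 12 differences were negative (median -0.41). Xcl1 also lost the call without LGG replicate 1 or combination replicate 2 or 3, and Gzmb lost it whichever library was left out and had an adjusted p of 0.562 with a trend on transcript length removed. Fasl, the ligand that triggers cell death through Fas, had 38.2, 49.5 and 51.5 normalised counts in the combination libraries and 105, 87.1 and 77.4 in the LGG libraries (adjusted p = 0.0612, limma). Summed over these 14 genes the combination libraries held 14736 to 15418 normalised counts and the LGG libraries 16878 to 30005, the highest in replicate 2. For the T cell list the sums overlapped, at 17853 to 18167 in the combination libraries and 17436 to 19307 in the LGG libraries. In bulk libraries fewer cells of a type and less RNA per cell cannot be told apart, and the part of such cells in the other results was not tested.

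The naming rule gives Il2ra, Gimap4 and Camk4 among the other genes that fell. Il2ra, the alpha chain of the interleukin-2 receptor, carried by activated T cells and by activated dendritic cells, had 396, 434 and 423 normalised counts in the combination libraries and 608, 551 and 682 in the LGG libraries (log2 difference -0.55 ± 0.09, adjusted p = 0.00642, limma). Gimap4, a GTPase of lymphocytes, had 533, 514 and 522 normalised counts in the combination libraries and 737, 766 and 749 in the LGG libraries, with hardly any spread in either group (log2 difference -0.52 ± 0.07, adjusted p = 0.00211, limma), but its adjusted p was 0.0924 with the length trend removed. Camk4, a calcium-dependent kinase of lymphocytes and neurons, had 47.7, 50.5 and 42.2 normalised counts in the combination libraries and 77.3, 79.8 and 96.5 in the LGG libraries (log2 difference -0.84 ± 0.11, adjusted p = 0.00211, limma). The calls of Il2ra and Camk4 did not end without any of the 6 libraries. Of 6 plasma cell genes 1 fell, against 0.18% of all genes, and 0 rose, while 4 of the 6 differences were positive (median 0.02). The 1 that fell was Igha, the constant region of the IgA heavy chain. Igha had 1.91, 0.971 and 5.86 normalised counts in the combination libraries and 17.1, 9.82 and 12.1 in the LGG libraries (log2 difference -2.01 ± 0.41, adjusted p = 0.0401, limma). Its call rests on a few reads per library and ended without LGG replicate 1 or 3 or combination replicate 1 or 2.

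PD-1 itself, encoded by Pdcd1, was close to the lower limit of the table. It had 5.73, 5.82 and 5.86 normalised counts in the combination libraries and 17.1, 12.3 and 15.1 in the LGG libraries, so that each combination library was below each LGG library, and the difference did not pass (log2 -1.21 ± 0.32, adjusted p = 0.156, limma). The ligand gene Cd274, which encodes PD-L1, overlapped at 18287, 18352 and 17381 in the combination libraries, against 18947, 15214 and 21372 in the LGG libraries, and Pdcd1lg2 (PD-L2) likewise, at 5134, 5019.8 and 5221 in the combination libraries, against 5014, 5988 and 4813 in the LGG libraries.

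Cd86, a ligand that costimulates T cells through CD28, was the only 1 of 18 costimulation and checkpoint genes that fell, against 0.18% of all genes, and 0 rose. It had 1331, 1193 and 1154 normalised counts in the combination libraries and 1650.3, 1719.6 and 1603 in the LGG libraries, lower in each combination library than in each LGG library (log2 difference -0.44 ± 0.07, adjusted p = 0.00534, limma; -0.41 (adjusted p = 0.0139) without LGG replicate 2). The related ligand gene Cd80 had 459, 454 and 453 normalised counts in the combination libraries and 476, 511 and 614 in the LGG libraries, which did not overlap but did not pass (adjusted p = 0.581, limma). Cd40, the receptor for T cell help, overlapped at 771, 799.8 and 872 in the combination libraries, against 926, 1211 and 710.4 in the LGG libraries. Havcr2, which encodes the inhibitory receptor TIM-3, lay on the higher side without passing, at 951, 947 and 945 in the combination libraries, against 797, 724 and 874 in the LGG libraries (adjusted p = 0.511, limma). The median difference of these genes was -0.05.

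Of 18 migratory dendritic cell genes Cacnb3 fell and 0 rose, with 16 negative differences (median -0.28) and 11 without overlap on the lower side, against 0.18% of all genes that fell and 5.45% without overlap. Without LGG replicate 2, 1 of 18 fell, against 0.282% of all genes, and 14 differences were negative (median -0.19). The summed level was 191165 to 202189 normalised counts in the combination libraries. It was 190984 and 169844 in LGG replicates 1 and 3 and 306590 in LGG replicate 2, so it was lower than in replicate 2 only. Cacnb3, a calcium channel subunit, had 2389, 2727 and 2531 normalised counts in the combination libraries and 3467, 3903 and 3159 in the LGG libraries (log2 difference -0.46 ± 0.08, adjusted p = 0.00993, limma). Its call ended without combination replicate 1 or 3, at an adjusted p of up to 0.0677. Ccr7, the receptor that guides dendritic cells to lymph nodes, had 4140.0, 4143 and 4194 normalised counts in the combination libraries and 5479, 7114 and 4949.6 in the LGG libraries, below in each combination library and with the highest value in LGG replicate 2 (adjusted p = 0.462, limma). Serpinb6b, an intracellular serpin, had 379, 327 and 343 normalised counts in the combination libraries and 541, 477 and 531 in the LGG libraries (adjusted p = 0.0523, limma). In the fit without the 3 libraries that stand apart 8 of the 18 fell and 1 rose, where 6.48% of all genes fell and 4.79% rose. Of 10 conventional dendritic cell genes, 13 of the cDC1 subset and 12 of the cDC2 subset, limma and edgeR called 0 in either direction. DESeq2 called 1 conventional gene higher, against 0.604% of all genes, and 1 cDC1 gene lower, against 0.973%. An unadjusted p under 0.05 was found for 2 genes on the higher and 4 on the lower side, against 2.78% and 4.12% of all genes. Clec9a, a receptor of cDC1 for dead cells, was at 492, 456 and 472 normalised counts in the combination libraries and 413, 359.6 and 435 in the LGG libraries.

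The naming rule gives 2 more genes that fell, Clic5 and Htr7. Clic5, a chloride intracellular channel protein, had 45.8, 67.9 and 53.9 normalised counts in the combination libraries and 129, 76.1 and 142 in the LGG libraries and fell by 51.6% (adjusted p = 0.0182, limma). LGG replicate 2 was nearest the combination there, so the difference grew to -1.28 (adjusted p = 0.000782) without it. Htr7, a serotonin receptor, had 123, 113 and 104 normalised counts in the combination libraries and 179.9, 156 and 194 in the LGG libraries (log2 difference -0.63 ± 0.12, adjusted p = 0.0222, limma), and -0.72 (adjusted p = 0.0152) without LGG replicate 2. Either call ended without LGG replicate 1 or 3 or combination replicate 3, that of Clic5 also without combination replicate 1 and that of Htr7 without combination replicate 2.

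Among the genes that rose, Gpr15 encodes a homing receptor that brings T cells to the colon, and had 611, 574 and 553 normalised counts in the combination libraries and 364, 419.8 and 366 in the LGG libraries, 51.1% higher in the combination (log2 difference 0.60 ± 0.09, adjusted p = 0.00642, limma). Syt7, a calcium sensor of lysosome and vesicle fusion, had 3428, 3435 and 3348 normalised counts in the combination libraries and 2409, 1909.8 and 2542 in the LGG libraries, lowest in LGG replicate 2 (log2 difference 0.58 ± 0.09, adjusted p = 0.00642, limma; 0.46 (adjusted p = 0.0138) without it). Mmp8, the neutrophil collagenase, which myeloid cells also make, had 8793, 8476 and 8160.5 normalised counts in the combination libraries and 6261, 5802 and 6457 in the LGG libraries (log2 difference 0.46 ± 0.07, adjusted p = 0.00534, limma). All 11 neutrophil markers tested, by contrast, had negative differences (median -0.52), 3 with an unadjusted p under 0.05 (4.12% of all genes), and 0 were called by limma, edgeR or DESeq2. The defining marker S100a8 was at 125, 145 and 141 in the combination libraries, against 149, 276 and 151 in the LGG libraries, and Ly6g at 23.9, 13.6 and 23.4 in the combination libraries, against 30.6, 60.1 and 37.2 in the LGG libraries. With the transcript-length trend removed, Gpr15 and Mmp8 had an adjusted p of 0.0708 and 0.115 and Syt7 of 4.65e-05.

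Cav1, the coat protein of caveolae, had 3647, 3666 and 3526 normalised counts in the combination libraries and 2753, 2321 and 2790.3 in the LGG libraries (log2 difference 0.47 ± 0.08, adjusted p = 0.0127, limma). Glul, glutamine synthetase, rose by less but with little spread, at 3807, 3782 and 3704 normalised counts in the combination libraries and 3228, 2994 and 3057 in the LGG libraries (log2 difference 0.28 ± 0.05, adjusted p = 0.0156, limma). Lrfn4, an adhesion protein with leucine-rich repeats, had 616, 693 and 691 normalised counts in the combination libraries and 465, 518 and 475 in the LGG libraries (log2 difference 0.45 ± 0.09, adjusted p = 0.0394, limma). Ankrd13b, an ankyrin repeat protein, had 1644, 1606 and 1615 normalised counts in the combination libraries and 1165, 1299 and 1219 in the LGG libraries, and Mettl7a1, a methyltransferase-like protein, had 1490.4, 1439 and 1399.5 in the combination libraries, against 1014, 1087 and 1073 in the LGG libraries. Their log2 differences were 0.40 ± 0.07 and 0.45 ± 0.08 (adjusted p = 0.0182 for Ankrd13b and 0.0182 for Mettl7a1, limma). Each of these 5 genes lost the call without any 1 of the combination libraries, all but Cav1 also without LGG replicate 3 and all but Cav1 and Glul without LGG replicate 1, and Mettl7a1 also with the length trend removed (adjusted p = 0.0877). With the trend removed and LGG replicate 2 left out, Cav1 and Glul did not pass either (adjusted p = 0.11 and 0.0855, limma). Lrfn4 and Ankrd13b passed there.

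The glucose transporter gene Slc2a1 was the 1 gene of 18 in glycolysis, and of 12 in hypoxia, that rose, against 0.0941% of all genes, and 0 fell. It had 8774, 8976 and 8643 normalised counts in the combination libraries and 7541, 7347 and 7604 in the LGG libraries (log2 difference 0.23 ± 0.05, adjusted p = 0.0475, limma), with an adjusted p above 0.05 whichever library was left out. In the hypoxia list Egln3, an oxygen-sensing hydroxylase, had 2012, 1925 and 1891 normalised counts in the combination libraries and 1372, 1089 and 1368 in the LGG libraries, without overlap and just short of a call (adjusted p = 0.0523, limma). The differences of 17 of 18 glycolysis genes (median 0.11) and 10 of 12 hypoxia genes (median 0.18) were positive. Without LGG replicate 2, 0 genes of either list rose, and 15 and 9 differences were positive (medians 0.19 and 0.16). The glycolysis sums overlapped, at 521557 to 524807 normalised counts in the combination libraries and 438528 to 563282 in the LGG libraries. The hypoxia sums did not overlap, at 43722 to 44611 in the combination libraries and 35185.5 to 43670 in the LGG libraries. Without the 3 libraries that stand apart 9 glycolysis genes rose and 0 fell, where 4.79% of all genes rose.

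**Figure D3:**
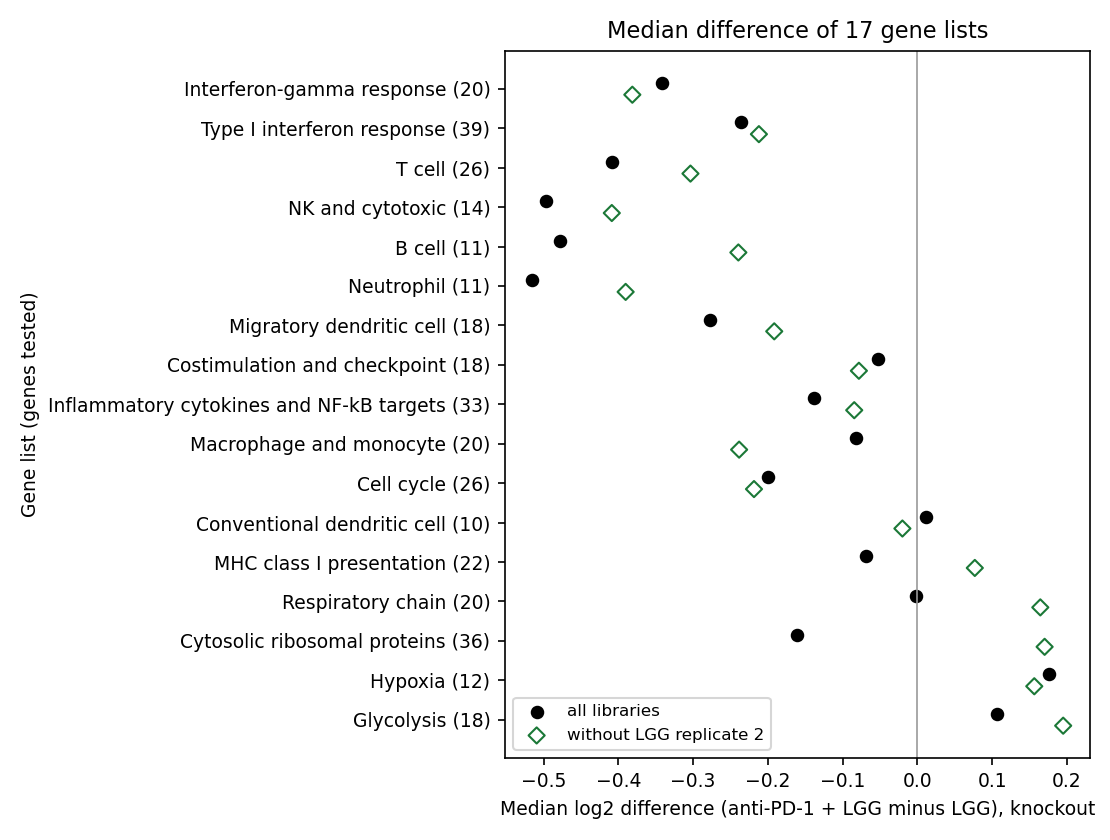
Median log2 difference, combination minus LGG alone in knockout, for 17 gene lists with the number of genes tested in brackets; filled points use all libraries and open diamonds leave out LGG replicate 2. The interferon-gamma list lies at -0.34 and -0.38, whereas the ribosomal protein list changes side, at -0.16 and 0.17.

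Of 33 inflammatory cytokine and NF-kB target genes and of 23 genes of Toll-like receptors and adaptors, 0 rose and 0 fell with limma, with medians of -0.14 and 0.01. At an unadjusted p under 0.05 there were 1 and 2 genes on the lower side, against 4.12% of all genes. DESeq2 called 1 inflammatory gene lower, against 0.973% of all genes, and edgeR called 0. Without LGG replicate 2 limma again called 0 in both lists, with medians of -0.08 and -0.07. Of the 23 Toll-like receptor and adaptor genes 13 had positive differences with that library and 8 without it. Without the 3 libraries that stand apart 4 of the 33 inflammatory genes fell and 0 rose, and 4 of the 23 Toll-like receptor and adaptor genes fell and 1 rose, where 6.48% of all genes fell and 4.79% rose. Il1b had 1446, 1327 and 1253 normalised counts in the combination libraries and 1469, 1761 and 1280.1 in the LGG libraries, Tnf had 3248, 3331 and 3485 in the combination libraries, against 3683, 4706 and 3204 in the LGG libraries, and Il6 had 547, 499 and 559.8 in the combination libraries, against 635, 544 and 592 in the LGG libraries, all 3 with overlap. Csf2, which encodes the growth factor GM-CSF, did not overlap, at 55.4, 45.6 and 31.6 in the combination libraries, against 64.8, 78.6 and 68.3 in the LGG libraries (adjusted p = 0.126, limma). The lipoprotein receptor gene Tlr2 was at 2789, 2695 and 2728 normalised counts in the combination libraries and 2813, 2630.3 and 2437 in the LGG libraries. Of 26 cell cycle genes 25 had a negative difference (median -0.20), 0 were called by limma or edgeR, and 10 had an unadjusted p under 0.05 on the lower side, against 4.12% of all genes. DESeq2 called 3 lower, against 0.973% of all genes. Without the 3 libraries that stand apart 14 fell, where 6.48% of all genes did.

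Some lists took their direction from LGG replicate 2. All 36 cytosolic ribosomal protein genes had negative differences with that library (median -0.16) and all 36 positive ones without it (median 0.17), and limma called 0 either way. Their summed level was 965536 to 1017810 normalised counts in the combination libraries, against 820466 to 936211 in LGG replicates 1 and 3 and 1770340 in LGG replicate 2. Genes of MHC class I presentation had 16 of 22 negative differences with it and 3 without it. No direction is given for these lists.

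Levels over the 4 knockout groups place these differences. Serpina3f averaged 439 ± 14.7, 729.6 ± 24.7, 282 ± 22.6 and 214 ± 8.84 normalised counts in the combination, LGG, anti-PD-1 and IgG groups in that order (SD, n = 3 each). Il2ra averaged 418 ± 19.3, 614 ± 65.8, 177 ± 7.64 and 140.1 ± 12.5, Gbp4 594 ± 12.1, 893 ± 91.8, 513 ± 87.3 and 477 ± 30.1 and Cd86 1226 ± 93.2, 1658 ± 58.8, 1007 ± 57.3 and 987 ± 47.1 over the same groups. In these 4 genes the combination mean lay below LGG alone and above anti-PD-1 and IgG. Gpr15 averaged 579 ± 29.5, 383 ± 31.6, 115 ± 2.74 and 186 ± 19.9 and Syt7 3404 ± 48.1, 2287 ± 333, 465 ± 41.0 and 743 ± 52.6, with the combination the highest of the 4 groups. Since LGG against IgG and the combination against LGG share the LGG libraries, the values are given side by side and no relation between the comparisons is tested.

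**Figure D4:**
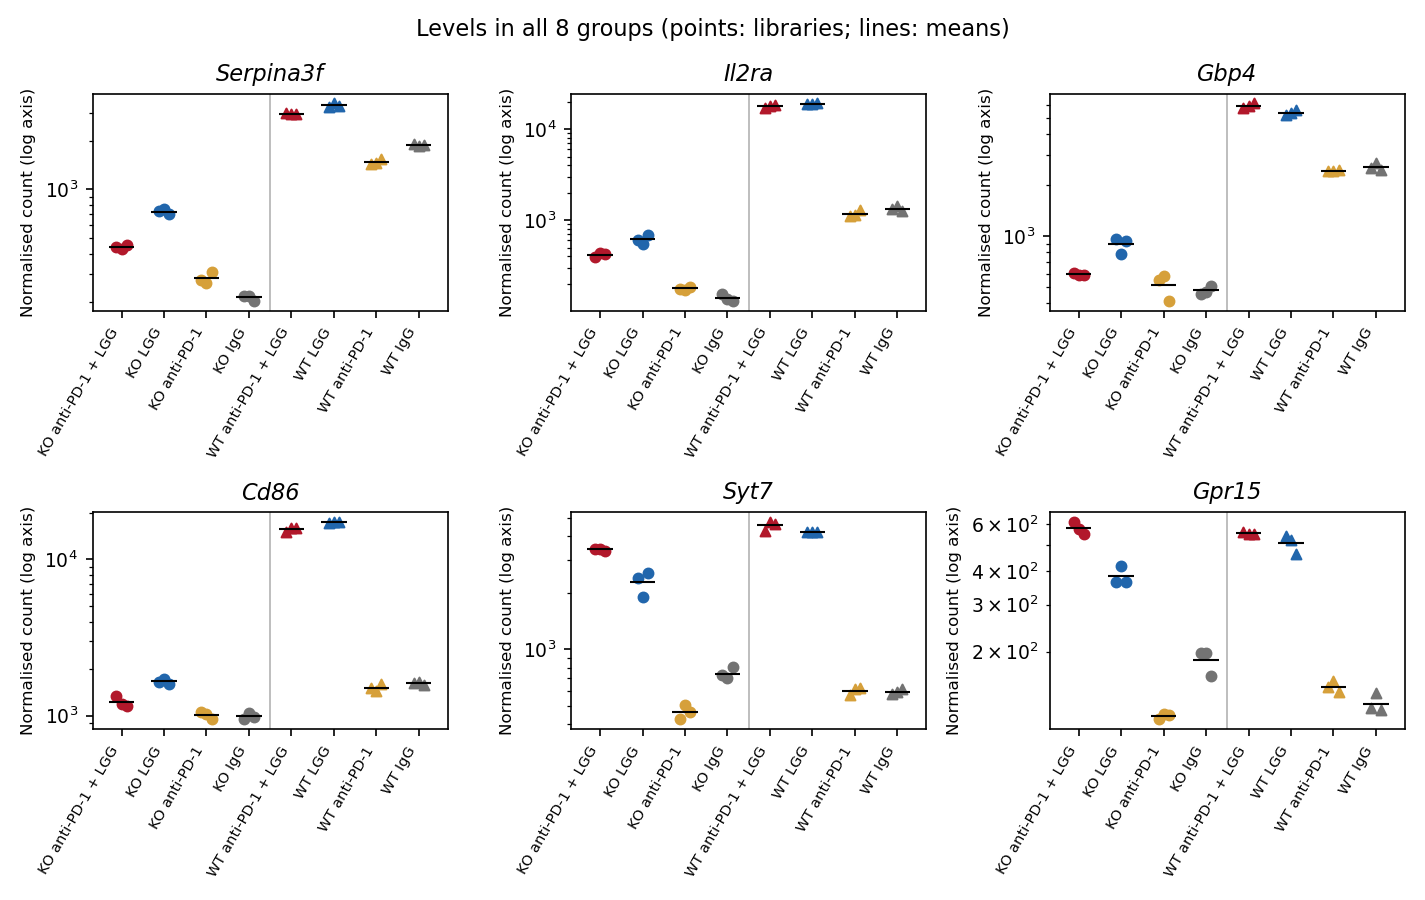
Normalised counts (log axes) of 6 genes in all 8 groups, knockout (circles) left of the line and wild type (triangles) right of it; points are libraries and lines means over 3. In knockout Serpina3f, Il2ra, Gbp4 and Cd86 are lower and Syt7 and Gpr15 higher in the combination than with LGG alone.

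Whether adding anti-PD-1 to LGG went with the same differences in wild type was tested directly as the difference of differences, (combination minus LGG) in knockout minus (combination minus LGG) in wild type. It passed for 7 of 12749 genes (0.0549%), 4 with a positive (0.0314%) and 3 with a negative value (0.0235%). Of all genes 758 had an unadjusted p under 0.05. The same comparison in wild type gave 8 calls (0.0628%), 5 higher (0.0392%) and 3 lower (0.0235%) in the combination. Of the 35 genes limma called 0 in wild type, and 7 had an unadjusted p under 0.05 there, where 827 of all 12749 genes did. For that contrast edgeR and DESeq2 were not run. For 4 of the 35 the genotypes differed in the direct test, and for the others no difference between genotypes was shown at an adjusted p under 0.05. In that test 33 of the 35 had an unadjusted p under 0.05, against 5.95% of all genes. The 35 were chosen by the knockout difference, which is itself a part of the direct test, so these counts are no separate support.

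Among those 4, Serpina3f differed by -0.56 ± 0.09 (adjusted p = 0.0189, limma), with 439 ± 14.7 in the combination and 729.6 ± 24.7 with LGG in knockout and 2951 ± 16.2 in the combination and 3322 ± 86.9 with LGG in wild type (SD, n = 3 each). Gimap4 differed by -0.65 ± 0.10 (adjusted p = 0.0116, limma), with 523 ± 9.21 in the combination and 751 ± 14.3 with LGG in knockout and 2352 ± 10.3 in the combination and 2145 ± 57.3 with LGG in wild type. Clic5 differed by -1.75 ± 0.26 (adjusted p = 0.0116, limma), with the wild-type means in the opposite order, at 655 ± 29.1 in the combination and 389 ± 13.0 with LGG. Lrfn4 differed by 0.77 ± 0.13 (adjusted p = 0.0252, limma), whose wild-type means also lay in the opposite order, at 105 ± 3.02 in the combination and 131 ± 13.6 with LGG. Outside the 35, Ccdc80 and Foxd1 also passed, of which Foxd1, a forkhead factor with a level under the rule's minimum in the combination and LGG groups, is named after its values were seen.

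For interferon-gamma genes the wild-type median was 0.03, against -0.34 in knockout, and 0 of 20 passed limma's direct test with all libraries, 5 with an unadjusted p under 0.05, against 5.95% of all genes. For type I interferon genes the wild-type median was 0.16, against -0.24 in knockout, and 38 of 39 differences of differences were negative (median -0.40). Of these 39 limma called 0 between genotypes, and 20 had an unadjusted p under 0.05. Gbp4 had a difference of -0.72 ± 0.14 (adjusted p = 0.0665, limma) and Iigp1 of -1.12 ± 0.23 (adjusted p = 0.085, limma). Without LGG replicate 2, 38 genes differed between genotypes in all (0.298%), 6 positive (0.0471%) and 32 negative (0.251%), and 3 of the 20 interferon-gamma genes and 5 of the 39 type I interferon genes were among the negative ones.

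**Figure D5:**
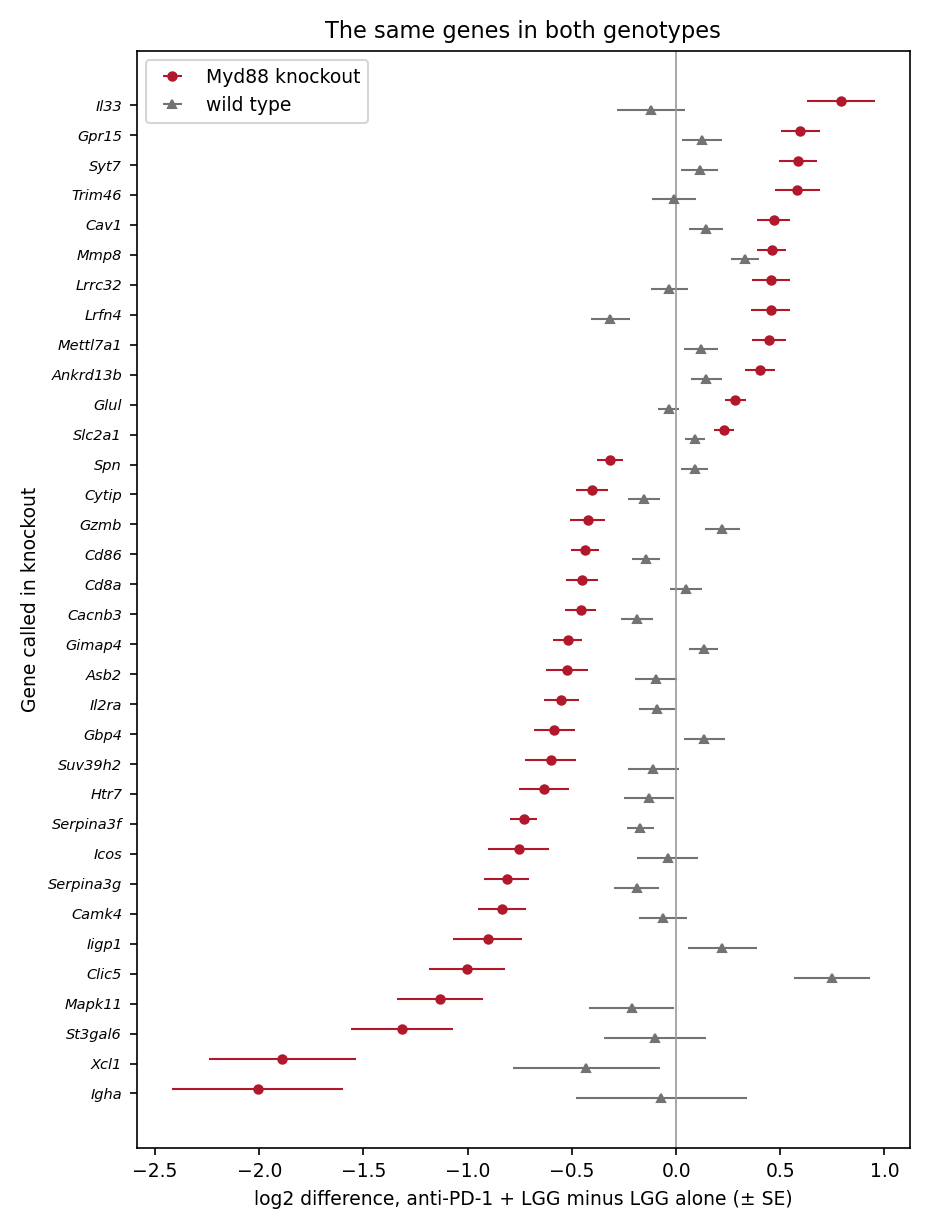
Log2 difference of the combination minus LGG alone (± SE) for 34 of the 35 genes called in knockout, in knockout (circles) and wild type (triangles). The absolute knockout values start at 0.23, and the wild-type values run up to 0.75 for Clic5 and lie on the same side of 0 for 22 of these 34 genes. The genes were chosen by their knockout difference, so the sizes in the 2 genotypes cannot be compared here.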

How the data were processed

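RNA sequencing measured gene transcripts in CD11c+ cells of mesenteric lymph nodes, 24 libraries in 8 groups of 3, of which 6 carry the main comparison. The deposited values are a normalised signal, that is, gene read counts scaled by 1 size factor per library. The submitters' processing notes name STAR 2.4.0 and the mm10 build, HTSeq 0.6.1 for counting and DESeq2 (no version). Whether counting used strand is not given in the sources used here. Values divided by the library's step gave whole reads for 100% of values within a tolerance of 0.001, and these reads served the count tests. Reads in listed genes ranged from 24531528 to 49272593 over all libraries, so genes near 10 normalised counts rest on few reads per library.

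From the deposited values, log2(value + 1) was taken for the 12749 of 12767 genes that averaged 10 or more. They were tested with limma 3.58.1 (R 4.3.3), fitted with 1 mean per group over all 24 libraries, a mean-variance trend and robust empirical Bayes variances. Two-sided p-values took the Benjamini-Hochberg adjustment over all genes of a contrast, and a gene was called at an adjusted p under 0.05. This replaces a count test because the deposited unit is normalised; the whole reads went to edgeR 4.0.16 and to DESeq2 1.42.0 as alternatives. The script was tested on simulated data with known changes. Those data held no library that stands apart from its group, so the test does not cover that feature of these libraries. Coordinates and exon lengths came from a GENCODE annotation of the same build, which matched 12759 genes, and promoters from a RefSeq table, which matched 26 of the 35 called genes. Promoters on 1 chromosome were left out before that match.

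Named genes are up to 12 that rose and 12 that fell most, called also without knockout LGG replicate 2, with a mean of at least 20 in the higher group and no overlap between libraries, predicted genes and receptor segments being passed over. Added were up to 4 members of each gene list with the smallest p, called genes that differ between genotypes, defining cell type markers and a fixed set of immune genes. A few genes and 1 promoter motif are not reported here. The members and lists were chosen with earlier results of these data known. Alternatives were a pseudocount of 8, no filter, TMM scaling, array weights, a replicate block, only the libraries compared, and libraries left out; removal of a transcript-length trend, and the other tests without LGG replicate 2, were chosen after seeing the data.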

Additional observations from a re-analysis of the deposited data

Results flagged for a closer look

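For 5 of the genes reported here the effect of adding anti-PD-1 to LGG differed between the genotypes in a direct test, limma's difference of differences, knockout minus wild type. Ccdc80, an extracellular matrix protein, differed by 0.81 ± 0.12 (adjusted p = 0.0116, limma), with 2241 ± 148 in the combination and 1691 ± 51.1 with LGG in knockout and 169.9 ± 9.62 in the combination and 227 ± 32.0 with LGG in wild type. Lrfn4 differed by 0.77 ± 0.13, Clic5 by -1.75 ± 0.26, Gimap4 by -0.65 ± 0.10 and Serpina3f by -0.56 ± 0.09. In Ccdc80 and Lrfn4 the combination mean was the higher in knockout and the lower in wild type, and in Clic5 and Gimap4 the lower in knockout and the higher in wild type. The test of Ccdc80 passed in each of 12 fits that left out 1 library, with a highest adjusted p of 0.047. Clic5 lost the call in 1 of these fits, Gimap4 in 2, Serpina3f in 6 and Lrfn4 in 9, with highest adjusted p values of 0.0541, 0.0606, 0.107 and 0.132 in that order. No library was tested as an outlier, because groups hold 3 libraries.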

How the results depend on the processing

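For the combination against LGG alone in knockout, the 35 calls became 34 with TMM scaling, 35 with no filter on low values, 49 with a pseudocount of 8 and 28 with the replicate block. They became 55 with edgeR and 201 with DESeq2, 3656 with array weights, 0 with only the libraries compared, 1437 without knockout LGG replicate 2 and anti-PD-1 replicates 2 and 3, and 11 to 47 with 1 library left out. Settings chosen after seeing the data gave 119 with a transcript-length trend removed and, without LGG replicate 2, 75 with edgeR, 271 with DESeq2, 1088 with array weights, 1819 with only the libraries compared and 110 with the length trend removed. The fit with array weights gave LGG replicate 1 a weight of 8.37, replicate 2 one of 0.0844 and replicate 3 one of 0.401. Of the 35, 33 were also called by edgeR, 35 by DESeq2 and 29 with the length trend removed. The 7 genes that differed between genotypes became 7 with the replicate block or no filter, 6 with a pseudocount of 8, 12 with TMM scaling, 20 with edgeR, 111 with DESeq2, 5760 with array weights, 3 with only the libraries compared, 3743 without the 3 libraries, 58 with the length trend removed and 93 with it removed and LGG replicate 2 left out, and 1 to 38 with 1 library left out. The cause of these shifts was not tested. The Y-linked gene Kdm5d changed sign, to -0.37 (adjusted p = 0.0383, limma) with only the libraries compared and LGG replicate 2 left out. Same-numbered libraries of the knockout combination and LGG groups did not deviate together (correlations of 0.04, -0.10 and -0.16). The other groups in the block were not checked for pairing. The block ended the calls of Lrfn4, Icos and Slc2a1 (adjusted p = 0.0733, 0.0582 and 0.0756, limma) and the difference between genotypes of Lrfn4 (adjusted p = 0.0515). Where LGG replicate 2 was left out, the LGG group held 2 libraries. Genes near 10 normalised counts, such as Igha and Xcl1, are limited by depth.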

Other observations

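Of the 35 called genes 9 lie outside the naming rule and are named after their values were seen. Those that fell are St3gal6, a sialyltransferase, Mapk11, a p38 kinase, Suv39h2, a histone methyltransferase, Asb2, a ubiquitin ligase subunit, Cytip, a cytohesin-binding protein of leukocytes, and Spn, the leukocyte surface protein CD43. Those that rose are Il33, Lrrc32 and Trim46. Il33, a cytokine of the interleukin-1 family whose receptor signals through Myd88, had 172, 168 and 158 normalised counts in the combination libraries and 109.7, 77.3 and 102 in the LGG libraries (log2 difference 0.79 ± 0.16, adjusted p = 0.0401, limma), lowest in LGG replicate 2. Lrrc32, which anchors latent transforming growth factor beta at the cell surface, had 2765, 2724 and 2615 normalised counts in the combination libraries and 2109.9, 1760.1 and 2056 in the LGG libraries (log2 difference 0.46 ± 0.09, adjusted p = 0.0293, limma). Both lost the call whichever of the 6 libraries was left out, with an adjusted p of up to 0.163 for Il33 and 0.149 for Lrrc32.

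Among 20 macrophage and monocyte genes limma called 0 with all libraries, edgeR 0 and DESeq2 1 lower, where DESeq2 called 0.973% of all genes lower. An unadjusted p under 0.05 was found for 5 of the 20 on the lower side (median difference -0.08, and -0.24 without LGG replicate 2). Without the 3 libraries that stand apart 7 of them fell and 1 rose, where 6.48% of all genes fell and 4.79% rose. On the lower side 4.12% of all genes had an unadjusted p under 0.05. Of 11 B cell genes limma, edgeR and DESeq2 called 0, and 1 had an unadjusted p under 0.05 on the lower side (median -0.48, and -0.24 without LGG replicate 2). Of 13 genes of MHC class II presentation 0 were called by any of the 3 tools, and 1 had an unadjusted p under 0.05 on the lower side (median -0.16, and -0.05 without LGG replicate 2).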
